A study of Mus musculus with 12 samples.

Results

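The genes described here encode the proteins of the cytosolic ribosome. They were chosen by name, as the protein-coding genes of the count table whose symbol starts with Rpl or Rps and a digit, or with Rplp or Rpsa. Symbols of ribosomal S6 kinases and of pseudogenes were left out. The rule took 87 of the 57490 genes listed, and it split into 46 proteins of the large subunit, 31 of the small subunit and 10 like-named genes. The last are paralogs, some of which can be built into ribosomes, retrogenes and a binding partner, such as Rpl3l, Rps27l, Rps23rg1 and Rps19bp1. Ribosomal proteins assemble with ribosomal RNA into the small and the large subunit, which together translate mRNA. Their mRNAs are abundant in nearly all tissues and typically begin with a C and a run of further pyrimidines, the terminal oligopyrimidine tract. Through this tract their translation responds to nutrients and growth signals by way of mTORC1 and the RNA-binding protein LARP1.

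Kidney RNA of 12 male mice aged 13 weeks was sequenced after enrichment of polyadenylated RNA, with each sample from 1 mouse. The 4 Ctrl mice were BKS heterozygotes (db/+, called db/m in the sample names) that received water by gavage. The 4 Model mice were BKS.Cg-Dock7m +/+ Leprdb/JNju (db/db) animals, homozygous for the Leprdb allele of the leptin receptor gene and selected for high blood glucose, and they received water as well. The 4 YHY mice were db/db animals gavaged daily for 4 weeks with a water extract of the Yiqi Huoxue Yangyin Decoction. The concentration is given as 6.24 g/mL, and which dose of the study this was is not named. The samples are called kidney in some places and renal cortex in others. Reads counted on genes numbered 29632718 to 33276634 per Ctrl mouse, 24415658 to 29784346 per Model mouse and 25149764 to 29698342 per YHY mouse.

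Markers of kidney cells were present in all 12 libraries. Levels are given as CPM, counts scaled to a common library size by edgeR's TMM method. The 4 proximal tubule markers, of which the androgen-dependent Kap was the most abundant, summed to 47301, 61791, 49702 and 22548 CPM in the Ctrl mice. In the Model mice they summed to 9359, 5987, 8606 and 6056 CPM, and in the YHY mice to 4471, 8258, 3386 and 8378 CPM. All db/db mice thus lay under all Ctrl mice in this sum, most of which was Kap in Ctrl. The sums of the other 3 markers overlapped, at 2266 to 3712 CPM in Ctrl, 2011 to 2697 in Model and 1050.0 to 3229 in YHY, although Lrp2 among them had 753 to 897 CPM in Ctrl, 213 to 302 in Model and 76.0 to 285 in YHY. Both thick limb markers together had 960.0 to 2048 CPM in Ctrl, 663 to 1019.8 in Model and 809 to 1924 in YHY. Slc12a3 of the distal tubule had 111 to 191, 258 to 396 and 276 to 466 CPM in the same order, and Aqp2 of the collecting duct 363 to 1132, 219 to 366 and 112 to 486 CPM. In these bulk samples fewer cells of a type and less RNA per cell cannot be told apart.

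Transcripts of the mitochondrial genome took 18.6, 22.7, 18.4 and 18.5% of the counts of the Ctrl mice. They took 41.2, 58.9, 55.3 and 53.4% in the Model mice and 53.8, 64.6, 54.6 and 54.2% in the YHY mice. The ranges of Ctrl and db/db mice did not overlap. The share left for all nuclear genes therefore differed between the groups, and results depend on how libraries are scaled. Ctrl 2, Model 2 and YHY 2 had the highest mitochondrial shares of their groups.

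Levels of the genes were compared with each other as FPKM, CPM per 1000 bases of the listed gene length. Of the 87 genes, 41 had a mean over 100 FPKM across the 12 mice, 11 had a mean under 10, and Rpl10l and Rpl39l had 0 counts in every mouse. The median was 102 FPKM over the 77 ribosomal proteins proper and 3.94 over the 10 like-named genes. Among the highest means were those of Rpl36 (745 FPKM), Rps15 (715), Rplp1 (695) and Rps3a1 (280.1), all proteins of the ribosome itself. Listed lengths differ with the transcripts that each gene model holds, which limits this order. For 4 genes the table put more counts on the pseudogenes named after them than on the gene. Pseudogenes took 96.8% of the joint counts for Rps10, 95.2% for Rps18, 67.5% for Rpsa and 59.4% for Rpl17. In all, 19 genes had over 10% of the joint counts on pseudogenes, among them Rpl21 at 47.9%, Rpl3 at 37.5% and Rpl14 at 10.3%. How reads that match several places were counted is not given in the sources used here, so levels of these 19 genes are uncertain.

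Because the tract at the start of these mRNAs is what the family is known for, the start sites of a few genes described below are shown. Each window runs from 25 bases before the listed start of transcription to 25 after it, on the strand of the gene from 5′ to 3′, from RefSeq on build GRCm38.p6. Capitals mark the longest run of pyrimidines that opens with a C. The window of Rpl4 is chr9:64173362-64173411 on the plus strand. The window of Rpl14 is chr9:120571492-120571541 on the plus strand. The window of Rps18 is chr17:33955641-33955690 on the minus strand. The window of Rps6 is chr4:86857343-86857392 on the minus strand. The window of Rps2 is chr17:24720038-24720087 on the plus strand. The window of Rps3a1 is chr3:86142644-86142693 on the minus strand.
Rpl4: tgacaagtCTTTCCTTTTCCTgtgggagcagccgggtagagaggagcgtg
Rpl14: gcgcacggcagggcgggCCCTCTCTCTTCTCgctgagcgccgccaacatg
Rps18: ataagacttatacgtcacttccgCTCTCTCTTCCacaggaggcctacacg
Rps6: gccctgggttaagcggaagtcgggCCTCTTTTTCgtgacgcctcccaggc
Rps2: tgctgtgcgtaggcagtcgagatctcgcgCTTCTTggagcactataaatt
Rps3a1: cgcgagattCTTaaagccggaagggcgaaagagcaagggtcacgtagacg

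The search was for a C followed by 7 or more further C or T. The runs of Rpl4, Rpl14, Rps18 and Rps6 are that long, and those of Rps2 and Rps3a1 are shorter. RefSeq starts were found for 67 of the 87 genes, with 79 windows. Of these windows 44.3% held such a run, against 15.5% of 32851 windows of all genes. On the opposite strand the shares were 7.60% and 17.3%. A match may lie anywhere in the window and need not be at the listed start of the mRNA. The run of Rpl4 opens at -17 from it, with a length of 13 bases, and so lies wholly before the start, while those of Rps18 and Rps6 open at -2 and -1. The coordinates belong to another build than those of the count table, which the submitters' notes give as GRCm39.

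Summed over the 87 genes, the level was 17909, 19651, 18386 and 16867 CPM in the Ctrl mice, 18288, 15402, 16187 and 15172 CPM in the Model mice and 12812, 10561, 12087 and 14204 CPM in the YHY mice. All 4 YHY mice lay under all other mice, whereas Model 1 lay within the range of Ctrl and the other 3 Model mice lay under it. On the log2 scale the mean of Model minus that of Ctrl was -0.16 with TMM and 0.16 with libraries scaled by their nuclear counts alone, so the sign depends on the scaling. The mean of YHY minus that of Model was -0.39, and -0.25 with nuclear counts alone. That of YHY minus Ctrl was -0.56, which came to -0.0904 with nuclear counts alone and -0.996 with library size alone. As a share of all counts the genes took 2.24, 2.13, 2.26 and 2.27% in the Ctrl mice, 1.91, 1.23, 1.36 and 1.45% in the Model mice and 1.33, 0.760, 1.24 and 1.24% in the YHY mice. As a share of the counts on nuclear genes alone they took 2.75, 2.75, 2.77 and 2.78% in Ctrl, 3.24, 2.98, 3.04 and 3.12% in Model and 2.88, 2.15, 2.73 and 2.70% in YHY. On that base all Model mice lay above all Ctrl mice, and YHY 2 was the lowest of the 12. The 95% Wilson intervals of these shares were at most 0.0104 and 0.0203 percentage points wide and cover counting error only, since copies made by PCR are not independent molecules.

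**Figure D1:**
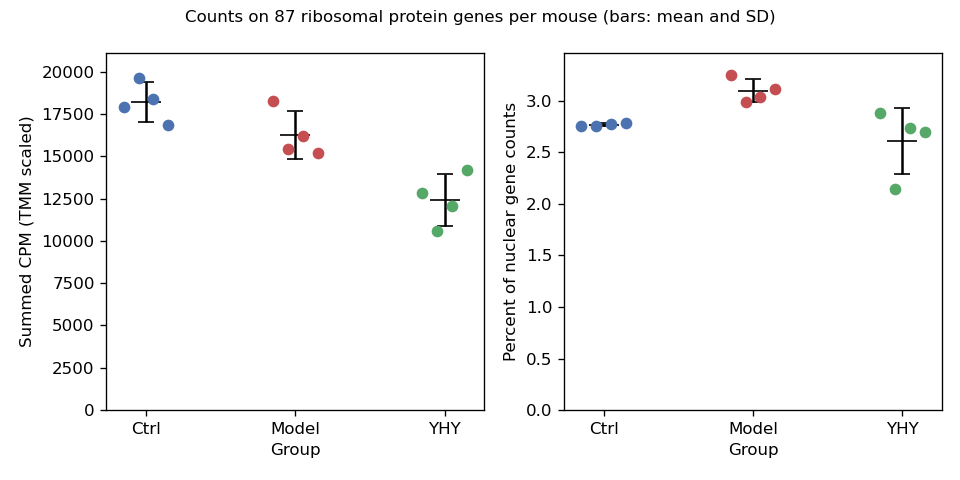
Left, summed level of the 87 ribosomal protein genes in CPM with TMM scaling; right, the same counts as a percent of all counts on nuclear genes. Points are mice by group, bars the mean and SD of 4 mice: Model lay at 16262 CPM against 18203 in Ctrl on the left, but at 3.10% against 2.76% on the right, and YHY had the lowest mean on both, 12416 CPM and 2.61%. On the right YHY 2 lay at 2.15%, and the other YHY mice at 2.70 to 2.88% against 2.75 to 2.78% in Ctrl.

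Diabetic and non-diabetic mice were compared first, a comparison that asks what the disease model changed. All 17431 genes with enough counts went into the two-sided quasi-likelihood test of edgeR, P was adjusted over all of them after Benjamini and Hochberg, and an adjusted P under 0.05 makes a call. Log2 fold changes carry a standard error (SE), and each group holds 4 mice. Of the 87 genes 85 had enough counts for the test, all but Rpl10l and Rpl39l. In Model versus Ctrl 8 of the 85 were higher, where 19.6% of all genes tested were, and 21 were lower, where 18.5% of all were. The members' own shares were 9.41% and 24.7%. With the limits of the study, which ask for an unadjusted P under 0.05 and a fold change of 1.2, 9 were higher against 24.5% of all genes and 30 lower against 22.4%. Without Ctrl 3 or Ctrl 4 the number higher was 3, or 3.53% against 14.3% and 15.1% of all genes. The number lower ran from 15 without Model 4, or 17.6% against 14.5% of all genes, to 33 without Model 1, or 38.8% against 20.9%. The 4 Model mice lay wholly above the 4 Ctrl mice for 8 genes, or 9.41% against 19.9% of all genes tested, and wholly under them for 23, or 27.1% against 20.3%. The median log2 fold change was -0.18 over the 85 genes and 0.04 over all genes, and it turned to 0.15 under scaling by nuclear counts alone. The family thus moved unevenly, from -1.55 for Rpl4 to 1.18 for Rps18.

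**Figure D2:**
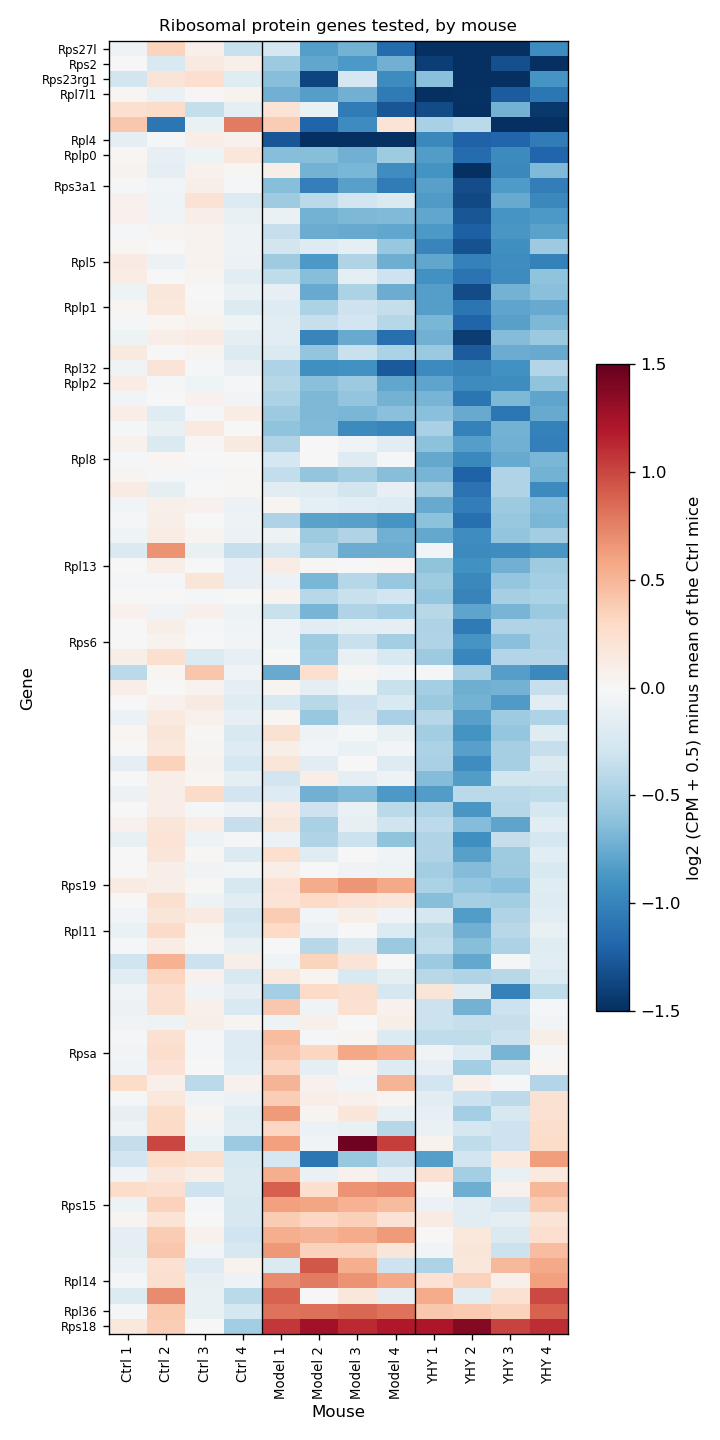
Level of each of the 85 ribosomal protein genes tested (lines) in each of the 12 mice (columns, ordered Ctrl, Model, YHY), as log2 of CPM plus 0.5 minus the mean of the Ctrl mice, with genes ordered by their YHY mean. Blue is lower and red higher than Ctrl with TMM scaling; under scaling by nuclear counts alone the median of Model versus Ctrl turns from -0.18 to 0.15. Most genes were blue in YHY, and a block that ends with Rps18 was red in Model. Names mark some of the genes described.

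Rpl4, a protein of the large subunit that reaches into the exit tunnel of the growing peptide (ENSMUSG00000032399, chromosome 9, 64080657 to 64085948), had 491, 535, 579.9 and 564 CPM in the Ctrl mice, 221, 191, 177 and 152 in the Model mice and 276, 233, 237 and 262 in the YHY mice. No group overlapped another, with the Model mice lowest and the YHY mice between. Its log2 fold change in Model versus Ctrl was -1.55 (SE 0.16, adjusted P = 6.38e-06), which is 0.342 of the Ctrl level and the largest fall among the 85 genes with TMM scaling. Rps3a1 of the small subunit (ENSMUSG00000028081, chromosome 3, 86045247 to 86050009) had 395, 389, 427 and 394 CPM in the Ctrl mice, 257, 197, 228 and 194 in the Model mice and 228, 159, 222 and 195 in the YHY mice. Ctrl lay apart from the db/db mice, while Model and YHY overlapped. The fall in Model versus Ctrl had a log2 fold change of -0.88 (SE 0.16, adjusted P = 0.000496). Rpl32 of the large subunit (ENSMUSG00000057841, chromosome 6, 115782466 to 115785708) had 222, 262, 224 and 212 CPM in the Ctrl mice, 167, 121, 122 and 95.6 in the Model mice and 118, 114, 122 and 169 in the YHY mice. All db/db mice lay under all Ctrl mice, and YHY 4 and Model 1 were the highest of their groups. It changed by -0.87 (SE 0.18, adjusted P = 0.00162) in Model versus Ctrl. These 3 falls stayed past the adjusted P limit with each scaling tried and without any 1 mouse. Of the other genes that fell, the largest change with TMM scaling was -0.84 for Rpl7l1.

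Rps18, a protein of the head of the small subunit (ENSMUSG00000008668, chromosome 17, 34170973 to 34174975), had 8.76, 10.3, 7.83 and 5.30 CPM in the Ctrl mice, 16.9, 19.4, 17.7 and 18.6 in the Model mice and 18.8, 21.0, 16.3 and 17.4 in the YHY mice. The Ctrl mice lay under all others. Its log2 fold change was 1.18 (SE 0.18, adjusted P = 0.000153) in Model versus Ctrl and 1.19 (SE 0.18, adjusted P = 6.22e-05) in YHY versus Ctrl. Most reads of this gene may lie elsewhere, since the pseudogene Rps18-ps5 had 154, 228, 159 and 140.0 CPM in the Ctrl mice, 380.0, 377, 392 and 356 in the Model mice and 286, 275, 243 and 389 in the YHY mice. This pseudogene changed by 1.15 (SE 0.19, adjusted P = 0.000219) in Model versus Ctrl and by -0.34 (adjusted P = 0.243) in YHY versus Model, where Rps18 was at 0.02 (adjusted P = 0.969). How counts were divided between gene and pseudogene is not known. Rpl36 of the large subunit (ENSMUSG00000057863, chromosome 17, 56920416 to 56921243) had 199.8, 265, 187 and 169 CPM in the Ctrl mice, 355, 358, 369 and 356 in the Model mice and 268, 266, 257 and 374 in the YHY mice. Model and Ctrl did not overlap, and YHY 4 stood above the other YHY mice and above every Model mouse. The log2 fold change of Rpl36 was 0.81 (SE 0.17, adjusted P = 0.00179) in Model versus Ctrl. Rpl14, also of the large subunit (ENSMUSG00000025794, chromosome 9, 120400510 to 120403720), had 268, 323, 251 and 259.9 CPM in the Ctrl mice, 449, 470.0, 439.5 and 407 in the Model mice and 319.6, 347, 288 and 421 in the YHY mice. Again no Model mouse overlapped a Ctrl mouse, and its log2 fold change in that comparison was 0.68 (SE 0.16, adjusted P = 0.00322). With libraries scaled by size alone the calls of the last pair ended, at 0.40 (adjusted P = 0.116) for Rpl36 and 0.25 (adjusted P = 0.283) for Rpl14, whereas that of Rps18 remained.

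The other 5 genes that rose in Model versus Ctrl were Rps27, Rps15, Rpl38, Rps19 and Rpsa, with log2 fold changes from 0.45 to 0.63, and all 5 calls ended with library size alone. Rps15 of the small subunit (ENSMUSG00000063457, chromosome 10, 80128287 to 80129948) had 367, 494, 382 and 329 CPM in the Ctrl mice, 595, 588, 560.0 and 541 in the Model mice and 367, 349, 327 and 508 in the YHY mice. Model lay above Ctrl throughout, and the YHY mice overlapped the Ctrl mice but not the Model mice. The log2 fold change was 0.54 (SE 0.18, adjusted P = 0.0251) in Model versus Ctrl and -0.56 (SE 0.18, adjusted P = 0.0486) in YHY versus Model. Both calls were near the limit. The first ended without Ctrl 1, Ctrl 3, Ctrl 4, Model 1, Model 2 or Model 3 (adjusted P from 0.052 to 0.108, log2 fold change from 0.41 to 0.55), and the second without Ctrl 1, Ctrl 3, Model 1, Model 2, Model 3, Model 4, YHY 1, YHY 2 or YHY 3 (adjusted P from 0.0613 to 0.116, log2 fold change from -0.59 to -0.49). With library size alone the first was 0.12 (adjusted P = 0.65) and the second -0.56 (adjusted P = 0.102), and with nuclear counts alone the second was -0.43 (adjusted P = 0.0575). The first also ended with an offset for length and no filter (adjusted P from 0.058 to 0.0614), and the second with an offset for length, no filter, the 8 mice compared alone and a block for the replicate number (adjusted P from 0.0717 to 0.0957). Rpsa, a small subunit protein also known as the laminin receptor (ENSMUSG00000032518, chromosome 9, 119956755 to 119961435), had 169, 209, 170.4 and 152 CPM in the Ctrl mice, 231, 217, 259 and 249.6 in the Model mice and 168, 152, 107 and 170.2 in the YHY mice. Model lay above both other groups. Rpsa changed by 0.45 (SE 0.17, adjusted P = 0.043) in Model versus Ctrl and -0.68 (SE 0.17, adjusted P = 0.0154) in YHY versus Model. The first call ended without any of Ctrl 1, Ctrl 3, Ctrl 4, Model 1, Model 2, Model 3 and Model 4, at 0.34 to 0.49 (adjusted P from 0.0563 to 0.168), and the second without Model 3, at -0.64 (adjusted P = 0.0535). The pseudogene Rpsa-ps10, which had more counts than Rpsa, had 419, 456, 411 and 393 CPM in the Ctrl mice, 451, 415, 437 and 409 in the Model mice and 245, 229.5, 234 and 276 in the YHY mice. Its log2 fold changes were 0.03 (adjusted P = 0.893) in Model versus Ctrl and -0.80 (adjusted P = 0.00242) in YHY versus Model. With library size alone the rise of Rpsa in Model versus Ctrl was 0.03 (adjusted P = 0.905), and its call also ended with no filter and a block for the replicate number (adjusted P from 0.066 to 0.102). Counted together with its pseudogenes, Rpsa changed by 0.16 (adjusted P = 0.429) in Model versus Ctrl and lost its call.

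**Figure D3:**
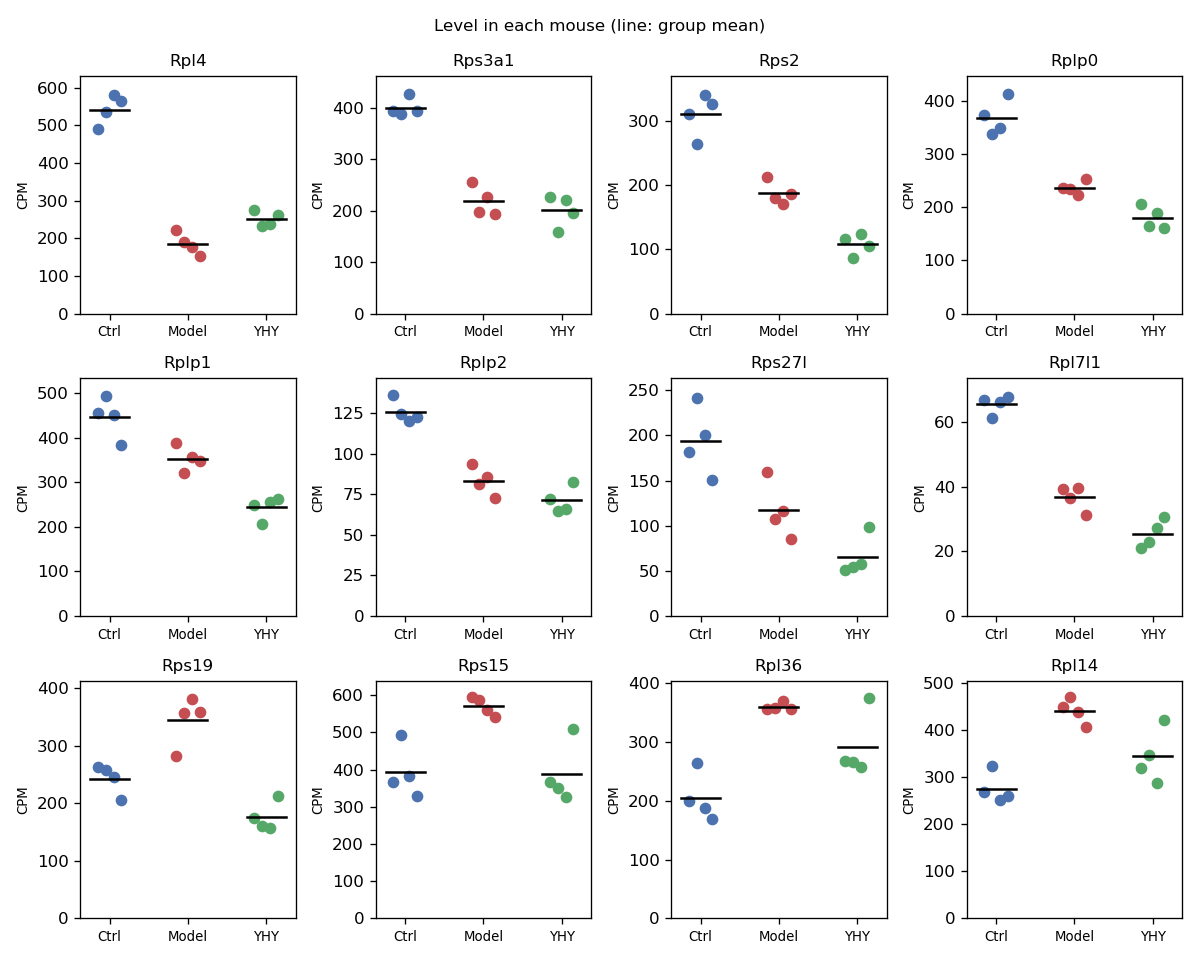
CPM with TMM scaling (vertical axes from 0) of 12 ribosomal protein genes in each mouse by group, with lines at the group means. Rpl4 was lowest in Model at 152 to 221 CPM, Rps2 fell from Ctrl through Model to YHY, and Rps19 was highest in Model; under other scalings the fall of Rps2 in Model versus Ctrl lost its call with nuclear counts alone and the rise of Rps19 with library size alone.

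Treated and untreated diabetic mice were compared next, which asks what the decoction changed. In YHY versus Model 20 of the 85 genes were lower, where 7.62% of all genes tested were, and 0 were higher by edgeR's test, where 5.63% of all were. At an unadjusted P under 0.05 1 gene was higher, and by DESeq2's Wald test 1 was, where 8.23% of all genes were. The members' share lower was 23.5%. By the fold limit with the unadjusted P, 42 were lower against 14.7% of all genes and 1 was higher against 13.9%. Of the 85 genes, called or not, 78 had a log2 fold change under 0 and 7 above it. The YHY mice lay wholly under the Model mice for 27 genes, or 31.8% against 9.28% of all genes, and wholly above them for 1, or 1.18% against 6.83%. The median log2 fold change was -0.39 against 0.02 over all genes, and it was -0.24 against 0.16 under scaling by nuclear counts alone. The number lower depended on single mice, with 7 without Model 3, 9 without YHY 2, 11 without Model 1 and 13 without Ctrl 1, Ctrl 3 or YHY 1. Without YHY 4 it was 27. The number over all genes moved too, with 8.24% of the 85 against 4.02% of all genes without Model 3, 10.6% against 5.91% without YHY 2, 12.9% against 5.16% without Model 1 and 31.8% against 9.46% without YHY 4. Without Ctrl 1, Ctrl 3 or YHY 1 it was 15.3% against 6.46%, 6.44% and 5.60%. Scaled by library size alone it was 4, or 4.71% against 3.94% of all genes, with nuclear counts alone 9, or 10.6% against 4.94%, and in a fit of only the 8 mice compared 6, or 7.14% against 4.20%.

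Rps19, a small subunit protein whose gene is mutated in Diamond-Blackfan anaemia (ENSMUSG00000040952, chromosome 7, 24583796 to 24589231), had 262, 258, 245 and 205 CPM in the Ctrl mice, 282, 356, 382 and 358 in the Model mice and 174, 161, 156 and 213 in the YHY mice. Model lay above both other groups, and the YHY mice lay under all Ctrl mice but Ctrl 4. The log2 fold change in YHY versus Model was -0.97 (SE 0.16, adjusted P = 0.00185), the largest fall of that comparison among the genes called with TMM scaling. Between Model and Ctrl it was 0.51 (SE 0.16, adjusted P = 0.0198), a call that ended without Ctrl 3, Ctrl 4, Model 2 or Model 3 (adjusted P from 0.0509 to 0.0955, log2 fold change from 0.38 to 0.49) and with library size alone, at 0.07 (adjusted P = 0.8), or no filter (adjusted P = 0.0634). Between YHY and Ctrl it was -0.46 (SE 0.16, adjusted P = 0.023), and this call ended without Ctrl 2, YHY 2 or YHY 3 (adjusted P from 0.0525 to 0.0621, log2 fold change from -0.44 to -0.41). Under scaling by nuclear counts the last value was 0.00 (adjusted P = 0.989), and its call also ended with upper-quartile scaling (adjusted P = 0.0743). Rps2, a small subunit protein near the entry of the mRNA (ENSMUSG00000044533, chromosome 17, 24937090 to 24940903), had 311, 265, 339 and 326 CPM in the Ctrl mice, 212, 180.3, 170.5 and 187 in the Model mice and 116, 85.8, 124 and 105 in the YHY mice. The 3 groups did not overlap. Rps2 changed by -0.80 (SE 0.15, adjusted P = 0.00443) in YHY versus Model, and -0.73 (adjusted P = 0.00166) in Model versus Ctrl. With library size alone the first was -0.78 (adjusted P = 0.0573), and with nuclear counts alone the second was -0.41 (adjusted P = 0.0641).

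Rps27l, a paralog of Rps27 induced by p53 (ENSMUSG00000036781, chromosome 9, 66853368 to 66856798), had 181, 241, 201 and 151 CPM in the Ctrl mice, 159, 107, 116 and 85.4 in the Model mice and 51.3, 53.9, 57.8 and 98.6 in the YHY mice. YHY 4 stood apart from the other YHY mice and overlapped the Model mice, and Model 1 overlapped the Ctrl mice. Rps27l changed by -0.84 (SE 0.23, adjusted P = 0.0272) in YHY versus Model and -0.73 (SE 0.23, adjusted P = 0.0219) in Model versus Ctrl. The first call ended without Model 1, Model 3, YHY 1, YHY 2 or YHY 3 (adjusted P from 0.0645 to 0.0804, log2 fold change from -0.84 to -0.66), and the second without Ctrl 2, Model 2, Model 3 or Model 4 (adjusted P from 0.052 to 0.0761, log2 fold change from -0.72 to -0.60). With library size alone the first was -0.86 (adjusted P = 0.0505), and it ended as well with the 8 mice compared alone and a block for the replicate number (adjusted P from 0.0542 to 0.0622). The second was -0.40 (adjusted P = 0.0978) with nuclear counts alone. Rpl8 and Rpl13, both of the large subunit, changed in YHY versus Model by -0.68 (adjusted P = 0.00586) and -0.73 (adjusted P = 0.00491), with Rpl8 at 318, 383, 334 and 376 CPM in the Model mice and 223, 194, 225 and 237 CPM in the YHY mice. The fall of Rpl8 lost its call with library size alone, at -0.66 (adjusted P = 0.0517). Between Model and Ctrl they were not called with TMM, at -0.11 (adjusted P = 0.554) for Rpl8 and 0.04 (adjusted P = 0.86) for Rpl13, but Rpl8 was at -0.55 (adjusted P = 0.033) with library size alone and Rpl13 at 0.37 (adjusted P = 0.0368) with nuclear counts alone. Rpl8 and Rpl13 were singled out after their values were seen. Rpl4 was above Model in all 4 YHY mice, at 0.44 (SE 0.15, adjusted P = 0.0668), and did not pass the test. It passed in some alternatives, among them DESeq2's test at 0.45 (adjusted P = 0.0108) and the fit without Model 1 at 0.54 (adjusted P = 0.0368).

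YHY mice were also set versus Ctrl mice, which shows how far the treated diabetic mice lay from non-diabetic ones. This comparison shares its mice with both others, and Model is shared between those, so counts from the 3 are given side by side and not as support for each other. In YHY versus Ctrl 59 of the 85 genes were lower, 69.4% of them, where 24.2% of all genes tested were. Rps18 and Rpl36 were higher, 2 genes, where 26.1% of all were. By the fold limit with the unadjusted P, 61 were lower against 26.6% of all genes and 2 higher against 29.4%. The number lower ran from 47 without Ctrl 2, or 55.3% against 22.3% of all genes, to 62 without Model 1, or 72.9% against 25.7%. The YHY mice lay wholly under the Ctrl mice for 49 genes, or 57.6% against 22.7% of all genes, and wholly above them for 1, Rps18, or 1.18% against 21.9%. The median log2 fold change was -0.56 against 0.10 over all genes, and it came to -0.10 against 0.57 under scaling by nuclear counts alone, where 17 genes were lower and 9 higher, or 20.0% and 10.6% against 12.7% and 43.8% of all genes.

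The largest falls were those of Rps23rg1, Rps27l and Rps2. Rps23rg1, a retrogene of Rps23 (ENSMUSG00000065952, chromosome 8, 3617990 to 3634939), was near the lower limit of the data, at 1.80, 2.68, 2.81 and 1.96 CPM in the Ctrl mice, 1.29, 0.571, 1.83 and 0.940 in the Model mice and 1.30, 0.221, 0.0744 and 1.01 in the YHY mice. All YHY mice lay under all Ctrl mice, with log2 fold changes in YHY versus Ctrl of -1.81 (SE 0.62, adjusted P = 0.0223) over all mice and -1.55 (adjusted P = 0.0548) without YHY 2, and -1.34 (adjusted P = 0.0712) with nuclear counts alone. Rps27l changed by -1.56 (SE 0.24, adjusted P = 5.86e-05) and Rps2 by -1.53 (SE 0.16, adjusted P = 2e-06), a level 0.347 of that in Ctrl. Rpl4 changed by -1.10 (adjusted P = 2.78e-05), Rps3a1 by -0.996 (adjusted P = 8.72e-05) and Rpl32 by -0.81 (adjusted P = 0.00156), of which the last was -0.35 (adjusted P = 0.056) with nuclear counts alone. On the other side Rpl36 changed by 0.51 (SE 0.17, adjusted P = 0.0223), a call that ended without Ctrl 1, Ctrl 3, Ctrl 4 or YHY 4 (adjusted P from 0.0801 to 0.12, log2 fold change from 0.36 to 0.43) and with library size alone, at 0.09 (adjusted P = 0.73), or no filter (adjusted P = 0.0618). Rpl14 was at 0.32 (adjusted P = 0.103) and Rps15 at -0.02 (adjusted P = 0.939), neither past the limit with TMM. Under scaling by nuclear counts alone both were higher in YHY than in Ctrl, Rpl14 at 0.78 (adjusted P = 0.00013) and Rps15 at 0.45 (adjusted P = 0.0148). Rpl14 also passed with upper-quartile scaling, at 0.44 (adjusted P = 0.0236), with an offset for length and with at least 10 counts in every mouse.

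**Figure D4:**
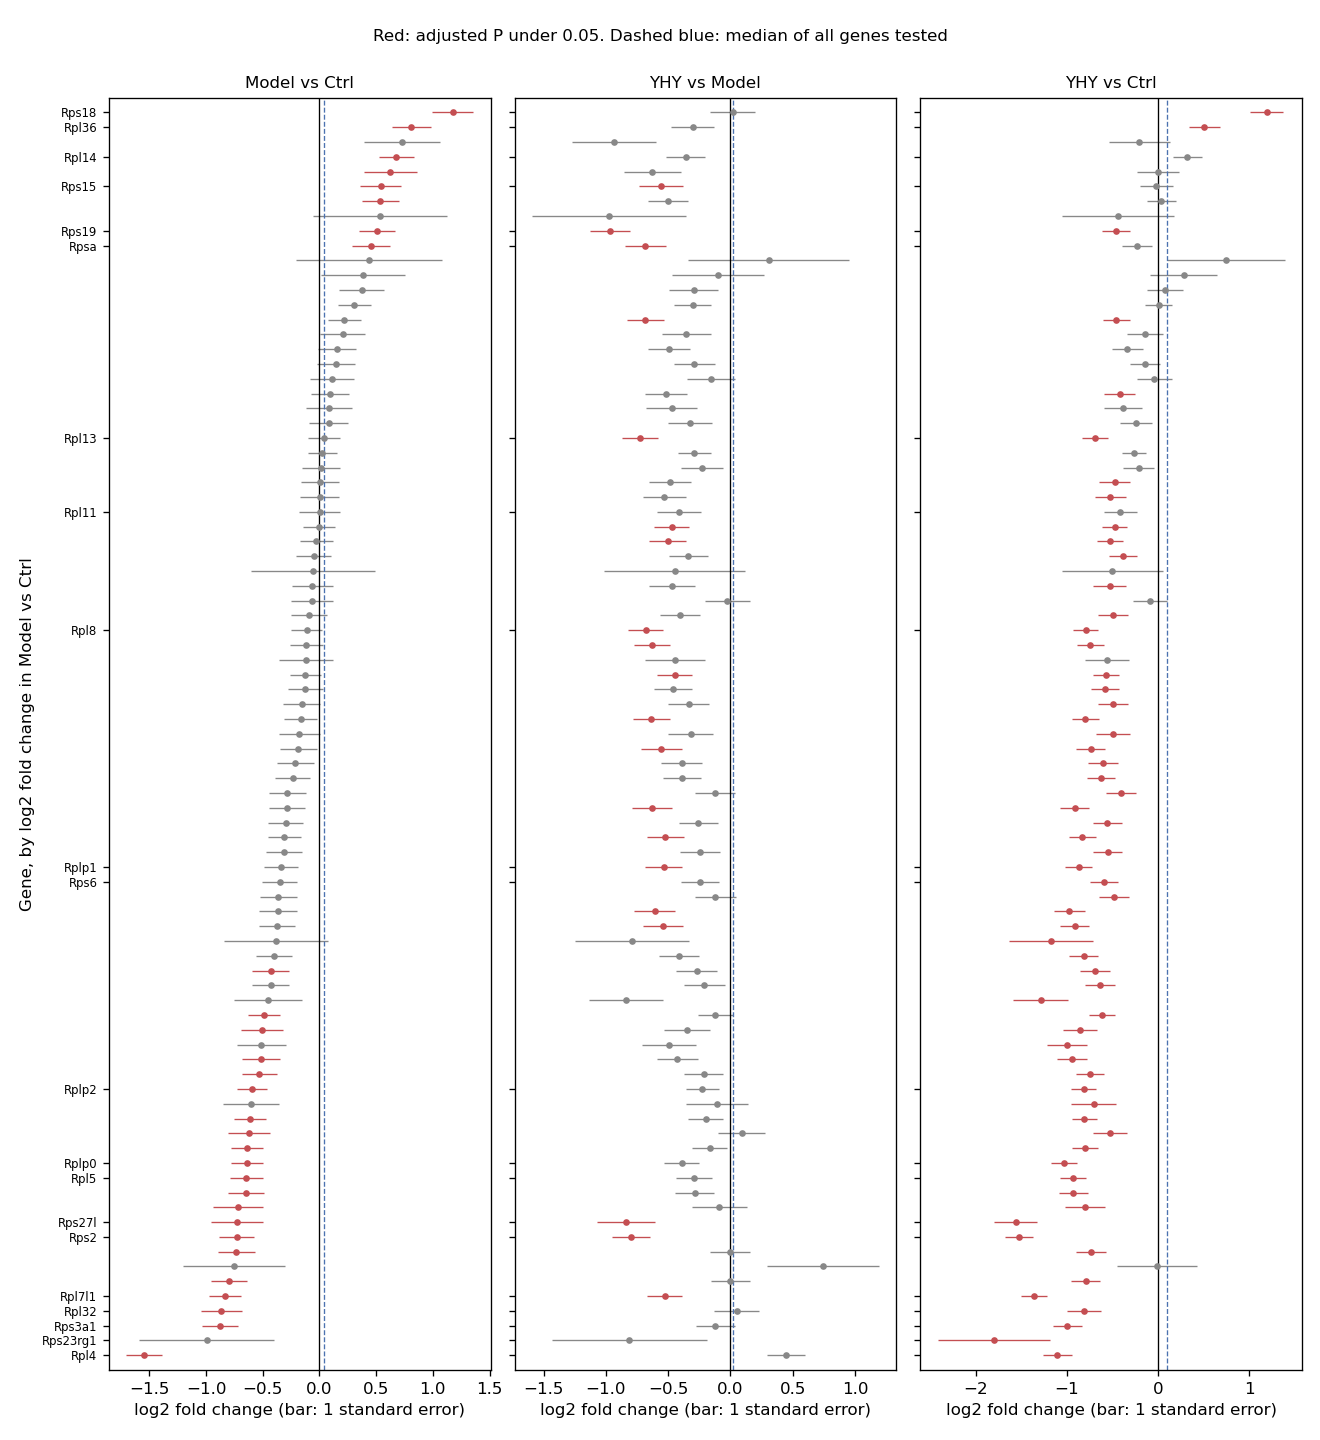
Log2 fold change of the 85 ribosomal protein genes tested in Model versus Ctrl, YHY versus Model and YHY versus Ctrl (horizontal axes, TMM scaling), with bars of 1 standard error, and genes ordered by the first comparison with some of them named. Red marks an adjusted P under 0.05 (8 higher and 21 lower, 0 and 20, and 2 and 59) and the dashed line the median of all genes tested; the median of the genes shown in Model versus Ctrl changes sign under scaling by nuclear counts alone, and those of the other comparisons do not.

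By subunit, 11 of 46 large subunit genes fell and 3 rose in Model versus Ctrl, and 7 of 31 small subunit genes fell and 5 rose, where 18.5% of all genes tested fell and 19.6% rose. With nuclear counts alone the balance was the reverse, with 4 large and 1 small subunit genes that fell and 13 and 6 that rose, where 9.44% of all genes fell and 32.9% rose. The median log2 fold change of the large subunit was -0.10, which turned to 0.00 with upper-quartile scaling and to 0.23 with nuclear counts alone, and that of the small subunit was -0.29, which turned to 0.04 with nuclear counts alone. In YHY versus Model 10 large and 8 small subunit genes fell, with medians of -0.38 and -0.34, and with nuclear counts alone 3 and 5 did, where 7.62% and 4.94% of all genes fell. In YHY versus Ctrl 31 and 23 fell, with medians of -0.53 and -0.60, and with nuclear counts alone 11 and 4 did, where 24.2% and 12.7% of all genes fell. These 4 medians were under 0 with every scaling tried. Whether the subunits differed from each other was not tested.

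The acidic stalk of the large subunit, which brings translation factors to the ribosome, is made of Rplp0, Rplp1 and Rplp2. Rplp0 (ENSMUSG00000067274, chromosome 5, 115697526 to 115701786) had 373, 338, 349 and 413 CPM in the Ctrl mice, 235, 235, 222 and 253 in the Model mice and 206, 164, 189.7 and 161 in the YHY mice. Its 3 groups did not overlap. The log2 fold change was -0.64 (SE 0.14, adjusted P = 0.0024) in Model versus Ctrl, -0.39 (adjusted P = 0.0817) in YHY versus Model and -1.03 (adjusted P = 2.78e-05) in YHY versus Ctrl. Rplp1 (ENSMUSG00000007892, chromosome 9, 61820566 to 61821824) had 454, 493, 450.1 and 383 CPM in the Ctrl mice, 387, 319.6, 356 and 347 in the Model mice and 249, 207, 256 and 261 in the YHY mice. Here the YHY mice lay under all others, and Model 1 reached into the Ctrl range. Its values were -0.34 (adjusted P = 0.0836), -0.53 (adjusted P = 0.0268) and -0.87 (adjusted P = 0.000167) in the same order, and the second ended as a call without Model 1, Model 3, Model 4 or YHY 2 (adjusted P from 0.0507 to 0.075, log2 fold change from -0.54 to -0.47). It was -0.52 (adjusted P = 0.14) with library size alone and -0.39 (adjusted P = 0.0716) with nuclear counts alone, and it ended too with an offset for length, no filter, the 8 mice compared alone, a block for the replicate number and the 9 mice behind the authors' group means (adjusted P from 0.0515 to 0.0823). In Model versus Ctrl Rplp1 passed with library size alone, at -0.75 (adjusted P = 0.009), with an offset for length and by DESeq2, and Rplp0 passed in YHY versus Model by DESeq2, at -0.38 (adjusted P = 0.0199). Rplp2 (ENSMUSG00000025508) had 136, 124, 120.4 and 123 CPM in the Ctrl mice, 93.6, 81.3, 85.9 and 72.9 in the Model mice and 72.2, 64.9, 65.8 and 82.7 in the YHY mice. All db/db mice were under all Ctrl mice, with -0.59 (adjusted P = 0.00271), -0.22 (adjusted P = 0.29) and -0.82 (adjusted P = 0.000126). With nuclear counts alone the falls of Rplp0 and Rplp2 in Model versus Ctrl lost their calls, at -0.32 (adjusted P = 0.139) and -0.27 (adjusted P = 0.094).

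Rpl5 and Rpl11 bind Mdm2 when ribosome assembly fails. Rpl5 (ENSMUSG00000058558) had 293, 253, 279 and 254 CPM in the Ctrl mice, 185, 147, 197 and 161 in the Model mice and 156, 134, 141 and 134 in the YHY mice. All db/db mice lay under all Ctrl mice, with a log2 fold change of -0.64 (SE 0.14, adjusted P = 0.00224) in Model versus Ctrl, which was -0.32 (adjusted P = 0.0896) with nuclear counts alone, and -0.94 (adjusted P = 6.34e-05) in YHY versus Ctrl. Rpl11 (ENSMUSG00000059291) had 338, 443, 374 and 308 CPM in the Ctrl mice, 444, 340.4, 364 and 315 in the Model mice and 273, 219, 271 and 336 in the YHY mice. Its groups overlapped, at 0.00 (adjusted P = 0.997) in Model versus Ctrl, -0.41 (adjusted P = 0.135) in YHY versus Model and -0.41 (adjusted P = 0.0628) in YHY versus Ctrl. The last passed by DESeq2, at -0.42 (adjusted P = 0.0322), with library size alone, at -0.81 (adjusted P = 0.00659), over the 9 mice behind the authors' group means and without Ctrl 4, Model 1 or YHY 4. Whether Rpl5 and Rpl11 differed from each other was not tested. Rps6, the substrate of the ribosomal S6 kinases (ENSMUSG00000028495), had 339, 354, 341 and 329.8 CPM in the Ctrl mice, 325, 235, 269 and 239 in the Model mice and 248, 185, 220.3 and 248 in the YHY mice. Every db/db mouse was under every Ctrl mouse, and the log2 fold change was -0.35 (adjusted P = 0.0842) in Model versus Ctrl, -0.24 (adjusted P = 0.318) in YHY versus Model and -0.60 (adjusted P = 0.0045) in YHY versus Ctrl. The last was -0.12 (adjusted P = 0.481) with nuclear counts alone, and the first passed in some alternatives, among them library size alone at -0.77 (adjusted P = 0.0119) and DESeq2's test at -0.36 (adjusted P = 0.0353).

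Of the 10 like-named genes 8 were tested. In Model versus Ctrl 3 fell, in YHY versus Model 2 and in YHY versus Ctrl 5, where 18.5%, 7.62% and 24.2% of all genes tested did, and with nuclear counts alone 1, 1 and 2 did, where 9.44%, 4.94% and 12.7% of all did. By edgeR's test 0 rose in any comparison, also at an unadjusted P under 0.05, and by DESeq2 0 rose. Rpl7l1, a paralog of Rpl7 (ENSMUSG00000063888), had 67.0, 61.2, 66.3 and 67.7 CPM in the Ctrl mice, 39.4, 36.7, 39.6 and 31.2 in the Model mice and 20.9, 23.0, 27.2 and 30.5 in the YHY mice. No groups overlapped. The log2 fold change was -0.84 (SE 0.14, adjusted P = 0.000311) in Model versus Ctrl, -0.53 (adjusted P = 0.0231) in YHY versus Model and -1.36 (adjusted P = 2.4e-06) in YHY versus Ctrl, and the second ended as a call without Model 3, YHY 1 or YHY 2 (adjusted P from 0.0539 to 0.0775, log2 fold change from -0.49 to -0.45). It was -0.52 (adjusted P = 0.113) with library size alone and -0.39 (adjusted P = 0.0755) with nuclear counts alone, and it ended too with the 8 mice compared alone (adjusted P = 0.0759). Rpl22l1, a paralog of Rpl22, had 17.5, 19.8, 22.7 and 15.1 CPM in the Ctrl mice, 16.2, 11.1, 11.6 and 9.95 in the Model mice and 10.2, 13.9, 13.9 and 14.2 in the YHY mice. YHY 1 lay under the other YHY mice. Rpl22l1 changed by -0.62 (adjusted P = 0.0156) in Model versus Ctrl and -0.53 (adjusted P = 0.0259) in YHY versus Ctrl. Without Model 4 the first was -0.53 (adjusted P = 0.057), and the second lost its call without Ctrl 2, Ctrl 3 or YHY 1 (adjusted P from 0.0556 to 0.0788, log2 fold change from -0.51 to -0.43). Under scaling by nuclear counts alone they were -0.30 (adjusted P = 0.173) and -0.06 (adjusted P = 0.788), and the second also ended with an offset for length and upper-quartile scaling (adjusted P from 0.0643 to 0.0753). Rps19bp1, which encodes a partner of Sirt1 as well as of Rps19, had 35.7, 39.8, 29.1 and 30.7 CPM in the Ctrl mice, 33.6, 23.3, 31.1 and 28.7 in the Model mice and 22.8, 16.8, 24.7 and 24.6 in the YHY mice. With TMM scaling it was called in YHY versus Ctrl alone, at -0.60 (adjusted P = 0.006), which was -0.13 (adjusted P = 0.534) with nuclear counts alone, and with library size alone it also fell in Model versus Ctrl, at -0.62 (adjusted P = 0.0375). Rps27rt had 60.1, 81.5, 106 and 76.9 CPM in the Ctrl mice, 46.8, 94.5, 80.6 and 77.5 in the Model mice and 78.6, 56.3, 44.7 and 40.3 in the YHY mice. Its groups overlapped and no comparison passed the test with TMM, while YHY versus Ctrl passed with library size alone, at -0.97 (adjusted P = 0.00436), with no filter and with an offset for length. Rpl3l, the paralog of Rpl3 in muscle, and Rpl36al had means of 0.443 and 0.317 FPKM and no call, with Rpl3l at 0.768, 1.06, 0.759 and 0.682 CPM in the Ctrl mice, 0.418, 1.09, 1.05 and 0.598 in the Model mice and 0.991, 0.663, 0.149 and 0.503 in the YHY mice. Rpl36al was at 0.576, 0.437, 0.171 and 0.432 CPM in the Ctrl mice, 0.772, 0.428, 0.365 and 0.769 in the Model mice and 0.229, 0.442, 0.372 and 0.155 in the YHY mice, near the lower limit of detection in all groups.

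Rack1 and Fau encode proteins of the ribosome but fall outside the name rule. They belong to a list of 3 such genes, of which the other had no call in any comparison with TMM scaling. Rack1, a scaffold protein of the small subunit, had 329, 369, 354 and 328 CPM in the Ctrl mice, 286, 275, 274 and 259 in the Model mice and 213, 204, 211 and 218 in the YHY mice. Its 3 groups did not overlap, and its log2 fold change was -0.33 (adjusted P = 0.0521) in Model versus Ctrl, -0.37 (adjusted P = 0.0687) in YHY versus Model and -0.71 (adjusted P = 0.000317) in YHY versus Ctrl. Fau had 284, 325, 306 and 272 CPM in the Ctrl mice, 267, 294, 309 and 309.6 in the Model mice and 195, 173, 195 and 236 in the YHY mice. The YHY mice lay under all others, at -0.56 (adjusted P = 0.0196) versus Model and -0.57 (adjusted P = 0.00391) versus Ctrl, while Model versus Ctrl gave -0.01 (adjusted P = 0.968). The calls in YHY versus Ctrl ended with nuclear counts alone, at -0.23 (adjusted P = 0.118) for Rack1 and -0.10 (adjusted P = 0.55) for Fau. The call of Fau in YHY versus Model ended with library size alone, at -0.55 (adjusted P = 0.0947), and with nuclear counts alone, at -0.43 (adjusted P = 0.0505). By DESeq2 Rack1 passed in Model versus Ctrl, at -0.34 (adjusted P = 0.00188), and in YHY versus Model, at -0.37 (adjusted P = 0.00238).

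Scaling decides the sign of the family's median in Model versus Ctrl. With library size alone, where mitochondrial transcripts count toward the total, the median over all genes tested moved from 0.04 to -0.39 and that of the 85 genes to -0.62, with 1 gene higher and 42 lower, or 1.18% and 49.4% against 8.87% and 32.5% of all genes. With nuclear counts alone the median of all genes was 0.37 and that of the 85 genes 0.15, with 19 higher and 6 lower, or 22.4% and 7.06% against 32.9% and 9.44% of all genes. With TMM the family's median lay from that of all genes by -0.21 in Model versus Ctrl, -0.41 in YHY versus Model and -0.66 in YHY versus Ctrl. A change of scaling moves all genes nearly alike, so the scalings do not test these distances. With nuclear counts alone the filter also left other genes, 16952 in place of 17431, all 85 of the family among them.

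**Figure D5:**
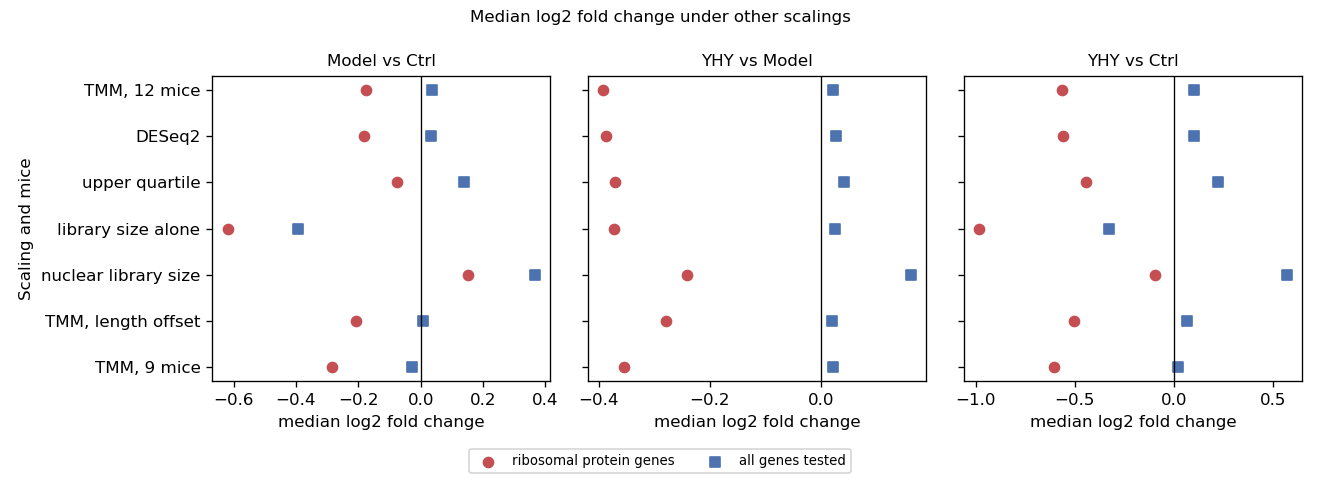
Median log2 fold change (horizontal axes) of the 85 ribosomal protein genes tested (circles) and of all genes tested (squares) in each comparison under 7 settings (vertical axis). In Model versus Ctrl the circles run from -0.62 with library size alone to 0.15 with nuclear counts alone, on both sides of 0. The setting with nuclear counts alone tested 16952 genes in place of 17431.

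Gene length was examined because these genes are short, with a median listed length of 1739 bases against 3788 over all genes tested. Across the 85 genes, which are not independent replicates, Spearman's rho between length and log2 fold change was -0.18 in Model versus Ctrl, 0.02 in YHY versus Model and -0.17 in YHY versus Ctrl. Over all 17431 genes it was -0.02, 0.19 and 0.07. Among genes of 1000 to 2000 bases, which hold 36 of the family, the family's median in YHY versus Model was -0.39 and that of 2411 genes of this length was -0.12. Among genes of 2000 to 4000 bases, with 31 of the family, these were -0.33 and -0.04. The family's medians in both length classes were -0.08 and -0.37, against 0.02 and -0.01 for all genes of the class, in Model versus Ctrl. With an offset for length in the fit, 13 genes were lower in YHY versus Model in place of 20, and 25 in Model versus Ctrl in place of 21, or 15.3% against 7.10% of all genes and 29.4% against 19.6%.

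Pseudogenes named after these genes make up 322 entries of the count table, of which 87 were tested. Of these 14 were higher and 5 lower in Model versus Ctrl, in YHY versus Model 0 and 6, and in YHY versus Ctrl 6 and 14, where all genes tested had 19.6% and 18.5%, 5.63% and 7.62%, and 26.1% and 24.2% in the same order. By other scalings the first pair of counts was 5 and 13 with library size alone, or 5.75% and 14.9% against 8.87% and 32.5% of all genes, and 32 and 1 with nuclear counts alone, or 37.6% and 1.18% against 32.9% and 9.44%. In YHY versus Ctrl it was 2 and 27 with library size alone, or 2.30% and 31.0% against 13.6% and 34.3% of all genes, and 23 and 4 with nuclear counts alone, or 27.1% and 4.71% against 43.8% and 12.7%. The numbers lower in YHY versus Model were 3 and 4 with these scalings, or 3.45% and 4.71% against 3.94% and 4.94% of all genes. Their median log2 fold change in Model versus Ctrl was 0.16, which turned to -0.21 with library size alone, and in YHY versus Ctrl -0.24, which turned to 0.29 with nuclear counts alone. Their median in YHY versus Model was -0.34 and under 0 with each scaling, and in that comparison 0 were also higher at an unadjusted P under 0.05 and 0 by DESeq2. Summed with their own pseudogenes, a setting chosen after the data were seen, 7 of the 85 genes were higher and 21 lower in Model versus Ctrl, 22 lower in YHY versus Model, and 2 higher and 61 lower in YHY versus Ctrl. In Model versus Ctrl that was 8.24% and 24.7% against 19.6% and 18.5% of all genes. In YHY versus Model it was 25.9% against 7.67%, and in YHY versus Ctrl 2.35% and 71.8% against 26.1% and 24.3%.

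Other genes of translation were listed to set the family in its pathway. Beside their counts stand the shares of all genes tested, which were 19.6% higher and 18.5% lower in Model versus Ctrl, 5.63% and 7.62% in YHY versus Model, and 26.1% and 24.2% in YHY versus Ctrl. Of 12 genes named as elongation factors or known for the same tract, 8 fell in Model versus Ctrl and 9 in YHY versus Ctrl. With nuclear counts alone 5 and 7 of the 12 fell, where 9.44% and 12.7% of all genes did. In YHY versus Model 0 changed by edgeR's test, 1 was higher and 1 lower at an unadjusted P under 0.05, and 1 was higher by DESeq2. The list's medians were -0.74 in Model versus Ctrl, 0.07 in YHY versus Model and -0.94 in YHY versus Ctrl, with the same signs under each scaling, and the second stood beside -0.39 for the ribosomal protein genes. Eef1e1, of the complex of aminoacyl-tRNA synthetases, changed by -1.71 (adjusted P = 0.00113) in Model versus Ctrl and by -1.67 in YHY versus Ctrl. Nap1l1, a histone chaperone, changed by -1.32 (adjusted P = 1.43e-05) in Model versus Ctrl. Of 34 initiation factors 19 fell and 1 rose in Model versus Ctrl, 3 fell and 1 rose in YHY versus Model, and 22 fell and 1 rose in YHY versus Ctrl. In Model versus Ctrl 7 fell and 3 rose with nuclear counts alone, where 9.44% and 32.9% of all genes did. In YHY versus Ctrl 9 fell and 7 rose with that scaling, where 12.7% and 43.8% of all genes did. The medians of the initiation factors were -0.41, -0.12 and -0.61, of which the second turned to 0.02 with nuclear counts alone. The cap-binding protein gene Eif4e changed by -1.31 (adjusted P = 1.34e-05) and Eif5b, which joins the subunits, by 1.35 (adjusted P = 0.000103) in Model versus Ctrl. Eif5a changed by -1.78 (adjusted P = 2.88e-07) in YHY versus Ctrl. Eif4a2 and Eif4ebp2 changed by 0.66 (adjusted P = 0.0201) and -0.61 (adjusted P = 0.0178) in YHY versus Model, and with library size alone both calls ended, at 0.66 (adjusted P = 0.0941) and -0.62 (adjusted P = 0.0784).

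Genes that build ribosomes were listed by step. Of 46 assembly factors 7 rose and 13 fell in Model versus Ctrl, 1 rose and 1 fell in YHY versus Model, and 10 rose and 11 fell in YHY versus Ctrl, where all genes had the shares given above. Scaled by nuclear counts alone 13 rose and 4 fell in Model versus Ctrl, where 32.9% and 9.44% of all genes did. In YHY versus Ctrl 26 rose and 5 fell with that scaling, where 43.8% and 12.7% of all genes did. The list's median in Model versus Ctrl was -0.17, which turned to 0.16 with nuclear counts alone. In YHY versus Ctrl it was 0.03, which turned to -0.43 with library size alone. Nop56 changed by 1.81 (adjusted P = 2.82e-05) and Ppan by 1.62 (adjusted P = 2.68e-05) in Model versus Ctrl, while Nhp2 changed by -1.92 (adjusted P = 5.26e-07) and Nop10 by -1.79 (adjusted P = 9.49e-06) in YHY versus Ctrl. The rise of Utp4 in YHY versus Model was 0.57 (adjusted P = 0.0413), which with library size alone was 0.54 (adjusted P = 0.132), and the fall of Nhp2 there -0.62 (adjusted P = 0.022). Of 14 genes of RNA polymerase I and its factors 3 rose and 2 fell in Model versus Ctrl, 2 rose in YHY versus Model, and 8 rose and 3 fell in YHY versus Ctrl. With library size alone the 3 rises in Model versus Ctrl lost their calls and 4 of the 14 genes fell. Of all genes 8.87% rose and 32.5% fell there. In YHY versus Ctrl 1 rose and 6 fell with library size alone, against 13.6% and 34.3% of all genes. With TMM 19.6% of all genes rose and 18.5% fell in Model versus Ctrl. The list's medians were 0.15, 0.03 and 0.47, the first of which turned to -0.28 with library size alone. Taf1a changed by 0.98 (adjusted P = 0.00342) and Taf1b by 0.92 (adjusted P = 0.000574) in Model versus Ctrl, and Myc by 1.55 (adjusted P = 0.00951) and Polr1b by 0.60 (adjusted P = 0.0367) in YHY versus Model. The calls of Taf1a, Taf1b and Polr1b ended with library size alone, at 0.53 (adjusted P = 0.0605), 0.49 (adjusted P = 0.0574) and 0.57 (adjusted P = 0.058). Of 9 host genes of small nucleolar RNAs 5 rose in Model versus Ctrl, 1 in YHY versus Model and 6 in YHY versus Ctrl. Their medians were 0.61, 0.12 and 0.86, above 0 with each scaling. With library size alone 1 rose in Model versus Ctrl and 4 in YHY versus Ctrl, where 8.87% and 13.6% of all genes did. Snhg12 changed by 1.83 (adjusted P = 1.6e-05) and Snhg8 by 0.91 (adjusted P = 0.00064) in Model versus Ctrl, and Snhg16 by 0.73 (adjusted P = 0.0395) in YHY versus Model. The last pair lost their calls with library size alone, at 0.46 (adjusted P = 0.0614) and 0.71 (adjusted P = 0.0716).

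Of 5 genes whose proteins bind the tract or the mRNAs that carry it, 2 rose and 1 fell in Model versus Ctrl, 2 rose in YHY versus Model, and 3 rose and 1 fell in YHY versus Ctrl. Over all genes tested 19.6% rose and 18.5% fell, 5.63% rose and 7.62% fell, and 26.1% rose and 24.2% fell in the same order. Tia1 changed by 1.00 (adjusted P = 0.000223) in Model versus Ctrl and by 0.65 (adjusted P = 0.0166) in YHY versus Model, the latter 0.64 (adjusted P = 0.0689) with library size alone. In the same order of comparisons, Larp4b changed by 0.95 (adjusted P = 0.000905) in the first and Tial1 by 0.62 (adjusted P = 0.0334) in the second. Larp4 changed by -1.04 (adjusted P = 0.000184) in YHY versus Ctrl. The list's medians were 0.31, -0.05 and 0.56, of which the first turned to -0.13 with library size alone and the second to 0.07 with nuclear counts alone.

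Proteins of the mitochondrial ribosome, which are made in the cytosol, were the closest family by role. Of 77 such genes tested 35 fell and 2 rose in Model versus Ctrl, 19 fell in YHY versus Model and 63 fell in YHY versus Ctrl, where 18.5%, 7.62% and 24.2% of all genes tested fell. With nuclear counts alone 18 fell and 11 rose, 9 fell, and 33 fell and 5 rose in the same order. Over all genes 9.44% fell and 32.9% rose, 4.94% fell, and 12.7% fell and 43.8% rose with this scaling. With library size alone 58, 5 and 73 fell, where 32.5%, 3.94% and 34.3% of all genes did. In the last pair of comparisons 0 rose by edgeR's test with TMM, with 0 and 1 higher at an unadjusted P under 0.05 and 0 and 1 by DESeq2. Medians were -0.40, -0.40 and -0.75, under 0 with each scaling, the first at -0.07 with nuclear counts alone, against -0.18, -0.39 and -0.56 for the cytosolic family. Mrps34 changed by -1.68 (adjusted P = 3.03e-05) and Mrpl44 by -1.50 (adjusted P = 5.53e-06) in Model versus Ctrl. Mrpl12 changed by -1.29 (adjusted P = 0.000322) and Mrps11 by -0.84 (adjusted P = 0.00122) in YHY versus Model. Mrpl50 and Mrpl34 changed by -1.90 (adjusted P = 3.44e-06) and -1.89 (adjusted P = 1.89e-05) in YHY versus Ctrl. Whether the cytosolic and the mitochondrial family differed was not tested.

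Markers of other cells moved between the groups as well, and their part in the values of the ribosomal protein genes was not tested. The 3 markers of dividing cells, of which Mki67 was the most abundant, summed to 7.13, 6.61, 5.48 and 2.91 CPM in the Ctrl mice, 34.6, 37.2, 26.0 and 34.4 in the Model mice and 9.23, 9.45, 4.76 and 5.88 in the YHY mice. All 3 rose in Model versus Ctrl and fell in YHY versus Model, with Mki67 at 2.82 (adjusted P = 3.93e-06) and -2.35 (adjusted P = 0.000263). The 5 macrophage markers, led by Csf1r, summed to 75.8 to 112 CPM in Ctrl, 60.7 to 110.4 in Model and 57.8 to 107 in YHY, and the groups overlapped. Single markers of this list moved apart, with Cd68 at 1.05 (adjusted P = 0.0073) in Model versus Ctrl, which was 0.62 (adjusted P = 0.0964) with library size alone, and 1.79 (adjusted P = 7.67e-05) in YHY versus Ctrl, and C1qa at -1.08 (adjusted P = 0.00147) in Model versus Ctrl. The 5 erythroid markers, led by Hba-a1, summed to 306 to 686, 271 to 476 and 324 to 1061 CPM, and of them 1 rose and 3 fell in Model versus Ctrl, 2 rose in YHY versus Model and 2 rose in YHY versus Ctrl. In YHY versus Model these were Alas2 at 1.71 (adjusted P = 0.0274) and Hbb-bs at 1.29 (adjusted P = 0.028), the latter 1.33 (adjusted P = 0.0548) with library size alone. The 6 lymphocyte markers had at most 4.73 CPM in any mouse, the 3 adipocyte markers 1.81 and the 3 adrenal markers 5.66. Of the adrenal markers Star rose in Model versus Ctrl, at 1.32 (adjusted P = 0.00128), and in YHY versus Ctrl, at 1.10 (adjusted P = 0.00294), the latter 0.69 (adjusted P = 0.0573) with library size alone. Of the kidney markers Kap changed by -3.06 (adjusted P = 5.09e-05) and Lrp2 by -1.68 (adjusted P = 0.0004) in Model versus Ctrl, and Umod of the thick limb by -2.86 (adjusted P = 5.43e-05). Others rose in that comparison, with Slc12a3 at 1.33 (adjusted P = 0.000256) and Nphs1 at 1.86 (adjusted P = 5.44e-05), and the proximal tubule markers Slc34a1 and Slc5a12 were not called, at 0.06 (adjusted P = 0.893) and 0.79 (adjusted P = 0.444).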

How the data were processed

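Kidney mRNA of 12 mice, 4 in each of 3 groups, was measured by sequencing. The authors deposited unnormalized read counts per mouse for 57490 genes, with gene lengths in bases. Per the submitters' processing notes, reads were processed with FastQC 0.11.9, Trimmomatic 0.39, HISAT2 2.2.1, SAMtools 1.12 and featureCounts 2.0.1, and analysed with DESeq2 1.34.0 in R 4.1.2, with builds GRCm39 and mm39 named. The strand setting, the annotation version and the handling of reads that match several places are not given in the sources used here. The deposited comparison tables and KEGG tables hold the authors' own fold changes and p-values, and 12 columns of values per mouse. None of these values entered the fits. The authors' group means served only to choose the mice of an alternative listed below.

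Counts were analysed with edgeR 4.0.16 and limma 3.58.1 in R 4.3.3, read with data.table of version 1.17.8, and figures drawn with matplotlib 3.10.9 in Python 3.11.15 and pandas 2.3.3. Genes were filtered with filterByExpr, which left 17431, and scaled by TMM. The 3 groups were fitted together without covariates by glmQLFit, and each pair was compared by glmQLFTest, two-sided, and P was adjusted after Benjamini and Hochberg over every gene in the fit. Genes with an adjusted P under 0.05 were called. CPM values are TMM-scaled, and FPKM divides them by the listed length. The procedure was tested on simulated counts, in which the groups had equal mean levels apart from some genes given known changes. They held no shift in mitochondrial share between groups, so they do not test the scaling under that shift. The members and the gene lists were chosen with earlier results of these data known. Lists were described by counts and medians, with no test of a list.

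Named genes were taken from the 5 with the highest mean FPKM, the 3 largest rises and 3 largest falls among those called in each comparison, the stalk proteins, Rpsa, the like-named genes, Rpl5, Rpl11, Rps6 and Rps19. Of the other lists, up to 2 called genes per list and comparison were named, given by their fold changes and not by mouse. Not every gene that this rule takes is described. Genes outside it are named as such or in ranges.

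Alternatives were DESeq2 1.42.0, upper-quartile scaling, library size alone, library size of nuclear genes alone, a minimum of 10 counts in each mouse, no filter, the 8 mice of a comparison fitted alone, a block for the replicate number, an offset for gene length, the 9 mice of the authors' group means (Ctrl 1, 3 and 4, Model 2, 3 and 4, YHY 1, 2 and 3), the study's fold limit, and leaving out each mouse in turn. Counting each gene with its pseudogenes was chosen after seeing the data. Start sites came from RefSeq on GRCm38.p6, matched by symbol.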

Additional observations from a re-analysis of the deposited data

Results flagged for a closer look

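Values of 1 mouse were compared with the other 3 of its group, for 90 groups of 4 mice, and 7 had a gap to the nearest mouse that was large against the range of the group. By chance alone about 1 in 20 groups would. Whether any of these values has a technical source was not tested.

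YHY 4 stood above the other YHY mice for 3 genes. Rpl36 was at 374 CPM in YHY 4 against 257 to 268 in the others, Rpl32 at 169 CPM against 114 to 122, and Rps27l at 98.6 CPM against 51.3 to 57.8. Rpl22l1 was at 10.2 CPM in YHY 1 against 13.9 to 14.2 in the other YHY mice. The ribosomal protein genes took 0.760% of the counts of YHY 2 against 1.24% to 1.33% in the other YHY mice, and mitochondrial transcripts took 64.6% of the counts of YHY 2 against 53.8% to 54.6%. Mitochondrial transcripts took 22.7% of the counts of Ctrl 2 against 18.4% to 18.6% in the other Ctrl mice.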

How the results depend on the processing

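Of the values for whole comparisons (calls, medians and summed levels), 101 moved little under the alternatives that kept all mice or used the authors' 9, 26 moved further and 2 changed sign. Between db/db and Ctrl mice the scalings that use library size moved them furthest, and the median of all genes moved with them. In YHY versus Model library size alone left the median at -0.37 and the summed difference at -0.40. With library size alone the median in Model versus Ctrl was -0.62 and the summed difference -0.60, with 1 gene higher and 42 lower. In YHY versus Ctrl the median was then -0.98 and the summed difference -0.996 with 1 higher, or 1.18% against 13.6% of all genes. In YHY versus Model 4 were then lower, or 4.71% against 3.94%. With nuclear counts alone the median in Model versus Ctrl turned to 0.15 and the summed difference to 0.16, with 19 higher and 6 lower. In YHY versus Ctrl the median was then -0.10 and the summed difference -0.0904, with 9 higher and 17 lower, and in YHY versus Model 1 was higher and 9 lower. Among single genes in YHY versus Ctrl, Rps15 turned to 0.45 (adjusted P = 0.0148) and Rps19 to 0.0028 (adjusted P = 0.989) with nuclear counts alone. These settings differ from TMM in the factor given to each library, and with nuclear counts alone also in the genes tested and adjusted over, 16952 in place of 17431.

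In YHY versus Model the number lower was 42 by the fold limit with an unadjusted P, 6 in a fit of the 8 mice compared, 13 with the replicate number as a block and 13 with the length offset. With the block that was 15.3% against 6.47% of all genes in YHY versus Model. The number higher there was 1 by the fold limit, by DESeq2, with nuclear counts alone, with at least 10 counts in every mouse, with the length offset and over the 9 mice. Of all genes 13.9%, 8.23%, 8.93%, 8.20%, 4.12% and 4.94% were higher in the same order. In YHY versus Ctrl 1 gene was higher without a filter, or 1.18% against 14.7% of all genes. Replicate numbers were not taken to pair mice across groups. Of 12 pairs with the same number, deviations from the group mean correlated across genes at -0.23 to 0.19. In 3 of them the correlation was over 0.1, and 2 were closest to their own number. The cause was not tested for changes other than those of scaling.

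Leaving out each mouse in turn gave medians from -0.32 to -0.13 in Model versus Ctrl, -0.45 to -0.31 in YHY versus Model and -0.68 to -0.52 in YHY versus Ctrl. Summed differences ran from -0.28 to -0.13, -0.46 to -0.32 and -0.66 to -0.49 in that order. The numbers higher ran from 3 to 9, 0 to 1 and 1 to 2, and those lower from 15 to 33, 7 to 27 and 47 to 62. Between Model and Ctrl, 3 were higher without Ctrl 3 or Ctrl 4 and 33 were lower without Model 1. The smallest library had 24415658 counts, and depth limits mainly the genes with the fewest counts, among them Rpl36al, Rpl24, Rpl3l, Rps10 and Rps23rg1. Rps10 and Rpl24 are proteins of the ribosome itself, and why their counts were so few was not tested. For Rps10 pseudogenes took 96.8% of the joint counts, so depth need not be what limits it.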

Other observations

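Some members varied between mice of a group far more than others, and they were singled out after their values were seen. Rpl7a had 219, 77.4, 153 and 284 CPM in the Ctrl mice, 215, 71.6, 85.8 and 190.4 in the Model mice and 118, 124, 30.1 and 53.2 in the YHY mice. All groups overlapped, and its log2 fold change in YHY versus Ctrl was -1.17 (SE 0.46, adjusted P = 0.0446), a call that ended without Ctrl 1, Ctrl 4, YHY 3 or YHY 4 (adjusted P from 0.08 to 0.118, log2 fold change from -1.14 to -0.90), with upper-quartile scaling, at -1.05 (adjusted P = 0.0667), with nuclear counts alone, at -0.74 (adjusted P = 0.189), and by DESeq2, at -1.16 (adjusted P = 0.0578). Pseudogenes named after Rpl7a took 22.1% of the joint counts. The largest, Rpl7a-ps5, had 35.6, 34.7, 29.4 and 11.1 CPM in the Ctrl mice. In the Model mice it had 28.7, 72.8, 94.8 and 28.9 CPM, and in the YHY mice 34.7, 23.2, 52.5 and 68.7. How counts were divided between gene and pseudogene is not known, so the level of Rpl7a in single mice is uncertain. Rpl30 had 128, 131, 84.2 and 97.8 CPM in the Ctrl mice, 125, 101, 52.2 and 44.3 in the Model mice and 42.5, 32.4, 66.0 and 39.3 in the YHY mice. YHY lay under Ctrl throughout, at -1.29 (SE 0.30, adjusted P = 0.0021). Between libraries of a group the chi-square per degree of freedom was 17.3 to 139, so no pair was taken as 1 library deposited under different names.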
